A study of Bos taurus with 9 samples.

Results

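The comparison described here asks what interferon tau changed in endometrial cells that were already receiving lysophosphatidic acid (LPA). It sets the 3 arrays of cells given LPA plus interferon tau (LPA+IFNt) against the 3 arrays of cells given LPA alone, 6 of the 9 arrays of the series, chosen by their titles, over every probe set that is not an array control. The model was fitted to all 9 arrays, so the control arrays also enter the estimate of the spread. With the 6 arrays alone 1004 probe sets were called, 456 higher and 548 lower, and 26 of the 117 called values named here were lost. The cells were stromal and epithelial cells of bovine endometrium, isolated early in the cycle (days 2 to 5) from Holstein/Polish Black and White cows and plated together at 3 stromal cells to 1 epithelial cell. Both groups received 1-oleoyl-sn-glycerol 3-phosphate, an LPA, at 1e-06 M for 6 h in serum-free medium with albumin. The LPA+IFNt group also received interferon tau, given in the labels as 1000 AVU with no volume. The 3 remaining arrays held PBS control cells, whose values are given beside the others as the untreated level. No group with interferon tau alone was analysed here, so every value below is the effect of interferon tau in the presence of LPA. The labels name 9 cows and 9 pooled RNA samples of 3 each, and do not say which cows went into which pool. If the 3 are cows, the pools must share cows and the 9 samples are not independent. The p-values measure the spread between these pooled samples.

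Interferon tau is the type I interferon that the ruminant conceptus secretes in early pregnancy, and it is the signal by which the conceptus makes itself known to the uterus. It binds the receptor chains IFNAR1 and IFNAR2, whose kinases include JAK1. The signal passes to transcription factors, STAT2 and IRF9 among them, which switch on the interferon-stimulated genes. LPA, a lipid mediator with its own G-protein-coupled receptors, is made in the bovine endometrium.

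All values are log2 levels, in which 1 unit is a 2-fold change, and differences are LPA+IFNt minus LPA. A probe set was called when its limma p-value, adjusted by Benjamini-Hochberg over all 24016 probe sets tested, was under 0.05. Of the 24016 probe sets 1571 were called, or 6.54%. They comprised 614 higher in LPA+IFNt (2.56%) and 957 lower (3.98%). At an unadjusted p under 0.05, 4195 probe sets passed. The 3 arrays of each group did not overlap for any called probe set. Over all probe sets, the 3 LPA+IFNt arrays lay above the 3 LPA arrays for 7.35% and below them for 11.3%.

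The rises were far larger than the falls. The median called rise was 0.84 and the median called fall was -0.48 on the log2 scale. A change of at least 2-fold was reached by 259 called probe sets that rose and 70 that fell. At least 4-fold was reached by 115 that rose and 2 that fell, at least 16-fold by 47 that rose and none that fell, and at least 64-fold by 13 that rose. These are fitted folds, and some of them start from an LPA level at or below background (2.80 on the log2 scale): 26 of the 259, 19 of the 115, 14 of the 47 and 9 of the 13. With such levels set to background, the rises of at least 2-, 4-, 16- and 64-fold numbered 254, 115, 45 and 10. The called falls lay at brighter probe sets: their median level with LPA was 8.90, against 7.69 for the rises and 4.35 for all probe sets.

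**Figure D1:**
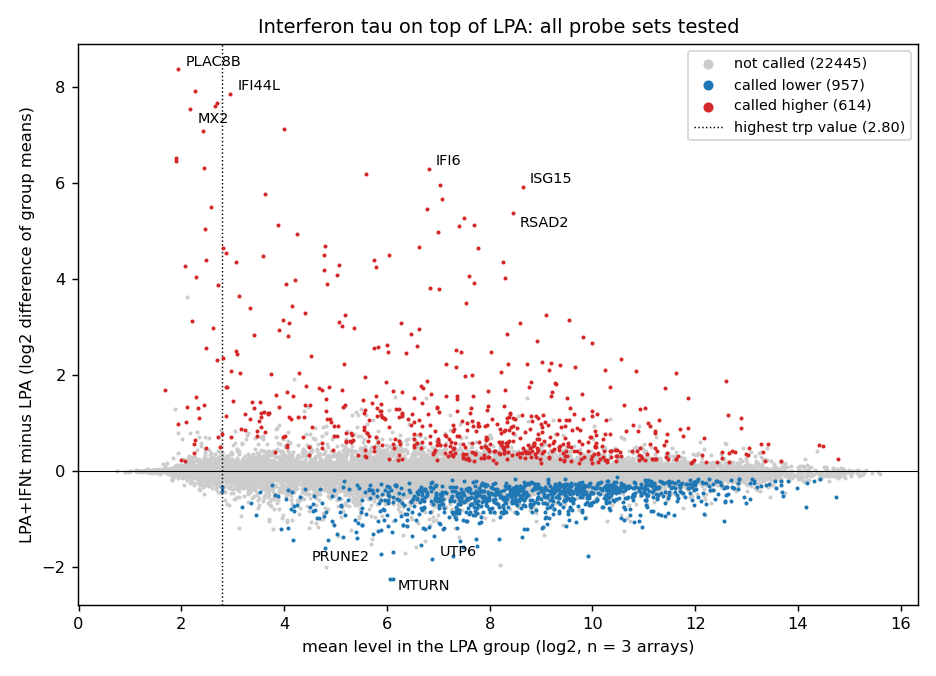
Each point is 1 of the 24016 probe sets, with its mean level in the LPA group (log2, 3 arrays) across and the difference of LPA+IFNt from LPA (log2) up. The 614 called rises (red) reach 8.36, the 957 called falls (blue) reach -2.25, and the dotted line marks 2.80, the highest value of the trp control probe sets.

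Array medians lay between 4.30 and 4.38, and the correlation of probe set levels was 0.9965 to 0.9979 among the LPA arrays, 0.998 to 0.9988 among the LPA+IFNt arrays and 0.9909 to 0.9939 between the groups. LPA replicate 2 was the lowest of the LPA arrays for 61.5% of the called falls, 35.3% of the called rises and 21.7% of all probe sets. LPA replicate 1 was the lowest for 16.3% of the called falls, 28.7% of the called rises and 52.6% of all probe sets. Without LPA replicate 2 730 probe sets were called higher and 1474 lower. The count of falls rested on single arrays more than the count of rises. It was 494 without LPA replicate 1, 626 without LPA replicate 3, and 609, 592 and 605 without LPA+IFNt replicates 1, 2 and 3, while the total fell to 954 without LPA replicate 1. Samples with the same replicate number deviated together, and with that number as a block 812 probe sets were called higher and 1508 lower.

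The genes with the largest rises were antiviral and interferon-induced genes, and several went from below background to a bright signal. The background used here is the highest value of the array's trp probe sets, which detect a bacterial transcript and reached 2.80. PLAC8B, a member of the placenta-specific 8 family, read 1.92, 1.96 and 1.94 on LPA replicates 1 to 3 and 10.21, 10.06 and 10.64 on LPA+IFNt replicates 1 to 3. Its level with LPA lay below the background, so the rise was at least 182-fold, with a fitted log2 difference of 8.36 (SE 0.13, adjusted p = 2.21e-08). IFI44, an interferon-induced gene, went from 2.25, 2.31 and 2.26 to 10.33, 10.16 and 10.10, at least 169-fold (adjusted p = 3.23e-10). Its neighbour in name and family, IFI44L, went from 2.93, 2.90 and 3.02 to 10.69, 10.69 and 11.02, or 230-fold (log2 7.85, SE 0.12, adjusted p = 2.31e-08). In these 3 genes the LPA arrays lay within 0.22 log2 units of the control mean on average, and the LPA+IFNt arrays stood far above both.

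MX2, a dynamin-like GTPase that blocks virus replication, went from 2.14, 2.19 and 2.18 to 9.77, 9.56 and 9.79, at least 121-fold (adjusted p = 4.16e-10). MX1, the related GTPase long used to follow interferon tau in cattle, was already well above background with LPA at 7.77, 7.62 and 7.71 and reached 12.82, 12.58 and 13.04, or 34.7-fold (log2 5.12, SE 0.11, adjusted p = 1.35e-07). IFI6, which codes for a small interferon-induced membrane protein, read 6.82, 6.88 and 6.72 with LPA and 13.20, 12.97 and 13.13 with both agents, 78.4-fold. Another small membrane protein gene, IFI27, went from 7.30, 6.51 and 7.43 to 12.84, 12.50 and 12.93, 51.1-fold. The spread among the LPA arrays of IFI27 was wider than for IFI6, with replicate 2 the lowest, yet the groups lay over 5 log2 units apart at 5.67 (SE 0.25, adjusted p = 8.66e-06).

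RSAD2 codes for viperin, an enzyme that makes a chain-terminating nucleotide against viral polymerases. It read 8.56, 8.10 and 8.69 with LPA and 13.93, 13.72 and 13.85 with LPA+IFNt, a 41.7-fold rise (log2 5.38, SE 0.15, adjusted p = 5.51e-07), above control levels of 7.25, 7.17 and 7.40. TNFSF13B, the B-cell survival factor BAFF, went from 4.09, 3.44 and 4.13 to 8.94, 8.92 and 9.17, 34.8-fold. TIFA, an adaptor that links TRAF proteins to NF-kappaB, lay below background with LPA at 2.44, 2.33 and 2.62 and reached 7.79, 7.39 and 7.33, at least 26.1-fold. EPSTI1, an interferon-induced gene, went from 7.79, 7.89 and 7.63 to 12.39, 12.40 and 12.45, 25.0-fold. The locus named only LOC100298356 went from below background to 8.74, 8.82 and 8.69, at least 62.0-fold. With USP18, ISG15 and UBA7, described with the ISG15 system, these make up the 15 named genes with the largest rises, and all 15 were called in each of the 9 fits that left out 1 array and in the fit with the replicate block.

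**Figure D2:**
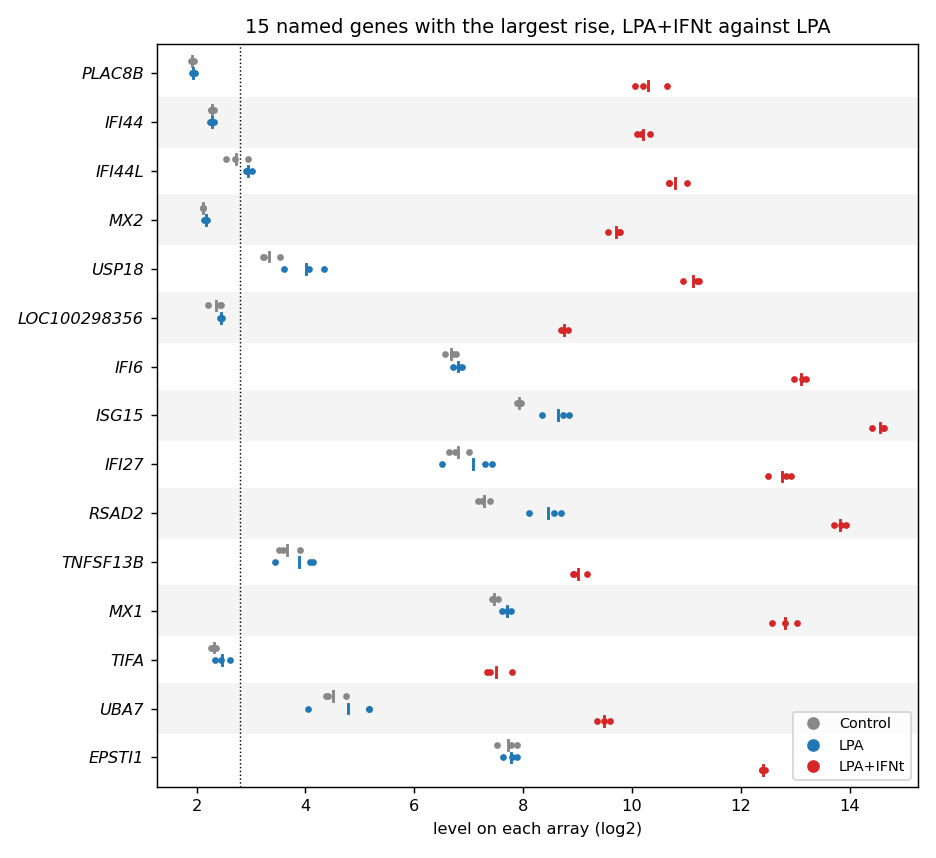
Points are the log2 level of each of the 9 arrays and short bars the mean of 3, for the 15 named genes with the largest rise, each by its most changed probe set. The LPA+IFNt arrays (red) lie far to the right of the LPA (blue) and control (grey) arrays in every row, and PLAC8B, IFI44, MX2, LOC100298356 and TIFA start left of the dotted line at 2.80.

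The receptor and kinase genes that start the pathway were not called, while the genes of its transcription factors rose. For genes with several probe sets, list members are given by the brightest, and by that rule 343 of 9155 genes (3.75%) were called higher and 381 (4.16%) lower, with a median difference of 0.0099 over all genes. Of the interferon receptor and JAK-STAT genes 10 were measured, and 2 rose and none fell (median -0.03). IFNAR1 read 4.50, 4.79 and 5.14 with LPA and 4.49, 4.37 and 4.57 with LPA+IFNt (log2 -0.33, 95% interval -0.69 to 0.03, adjusted p = 0.337). IFNAR2 read 8.12, 7.89 and 8.39 against 7.98, 8.12 and 8.33 (log2 0.01, interval -0.31 to 0.34, adjusted p = 0.958). JAK1 differed by -0.33 (adjusted p = 0.111) and passed with the replicate block (adjusted p = 0.0455), as did IFNGR2, a receptor chain for interferon gamma, at -0.38 (0.106, and 0.0311 with the block).

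STAT2 and IRF9, transcription factors of the pathway, both rose. STAT2 went from 6.05, 5.87 and 6.15 to 8.55, 8.28 and 8.67, 5.56-fold (log2 2.47, SE 0.11, adjusted p = 9.12e-06). IRF9 went from 6.63, 6.35 and 6.17 to 8.99, 8.59 and 8.94, 5.50-fold (log2 2.46, SE 0.19, adjusted p = 0.000244). In neither gene did the LPA and LPA+IFNt arrays overlap, and LPA alone differed from control by -0.02 for STAT2 and 0.15 for IRF9.

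Of the interferon regulatory factors, transcription factors of which several are induced by interferon, 6 were measured and 4 rose (median 0.73). The share was 66.7%, against the 3.75% of all genes. IRF7, which amplifies interferon production, rose by 2.07 (SE 0.20, adjusted p = 0.000944) from 8.39, 8.46 and 7.82 to 10.57, 10.09 and 10.23. IRF3, the factor downstream of viral sensors, rose by 0.71 (SE 0.07, adjusted p = 0.000816). IRF8 rose by 0.44 (adjusted p = 0.0165), a call lost without LPA replicate 3, LPA+IFNt replicate 1 or LPA+IFNt replicate 3 (adjusted p 0.0534, 0.0613 and 0.0601). IRF5 read 6.48, 6.54 and 5.73 with LPA and 7.09, 6.98 and 6.93 with both agents and was not called (log2 0.75, adjusted p = 0.0851), but passed without LPA replicate 2 or 3 (0.0481 and 0.0399) and with arrays centred on spike-in controls (0.0102).

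Among 12 measured genes that restrain interferon signalling, the 3 that rose were ISG15, USP18 and TRIM21 (median of the list 0.09). They were 25% of the list, against the 3.75% of all genes. The suppressors of cytokine signalling measured did not pass: SOCS3 differed by 0.05, with both group means below background, SOCS2 by -0.26 and CISH by 0.13. TRIM21, an antibody receptor and ubiquitin ligase, rose by 2.82 (SE 0.21, adjusted p = 0.000234).

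**Figure D3:**
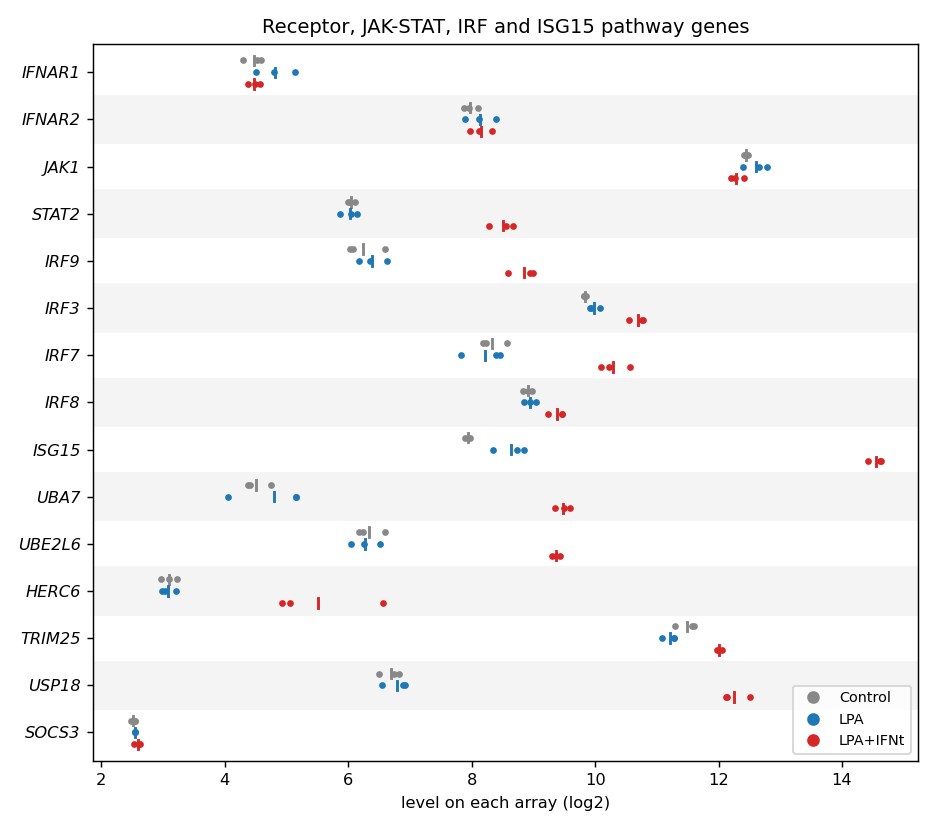
Points are the log2 level of each array and short bars the mean of 3, for receptor, kinase, transcription factor and ISG15 pathway genes by their brightest probe set. IFNAR1, IFNAR2 and JAK1 overlap between LPA (blue) and LPA+IFNt (red), while STAT2, IRF9, IRF3, IRF7, ISG15, UBA7, UBE2L6 and USP18 are shifted right in LPA+IFNt.

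The ISG15 system rose nearly as a whole: of its 8 genes, all measured, 6 rose and none fell (75.0% against the 3.75% of all genes, median 2.76). ISG15 is a ubiquitin-like protein that is attached to other proteins and is a known marker of interferon tau in the bovine uterus. It read 7.89, 7.94 and 7.97 in control cells, 8.73, 8.35 and 8.84 with LPA, and 14.63, 14.42 and 14.62 with LPA+IFNt, 60.5-fold over LPA (log2 5.92, SE 0.12, adjusted p = 1.33e-07). LPA alone lay 0.71 above control without passing (adjusted p = 0.105).

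UBA7, the enzyme that activates ISG15, went from 5.16, 4.05 and 5.16 to 9.49, 9.35 and 9.60, 25.8-fold. UBE2L6, the conjugating enzyme, rose by 3.09 (SE 0.14, adjusted p = 1.13e-05). HERC6, a ligase of the system, rose by 2.43 (SE 0.39, adjusted p = 0.0105), unevenly, from 2.99, 3.04 and 3.21 to 5.05, 6.56 and 4.92. TRIM25, a ubiquitin ligase that also acts with ISG15, rose by 0.80. USP18, the protease that removes ISG15 and also blocks the receptor, rose by 5.46 at its brightest probe set (6.55, 6.89 and 6.92 to 12.12, 12.51 and 12.13) and by 7.12 at its most changed one. HERC5, the ligase in human cells, read 3.94, 4.18 and 4.54 against 3.93, 4.14 and 3.85 and was not called, nor was ARIH1 (log2 0.02).

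Of 27 listed genes that sense viral nucleic acid or pass on its signal, only 10 were measured. Among these 3 rose, 30% against the 3.75% of all genes, and none fell (median 0.40). IFI16, a DNA sensor, went from 8.36, 8.11 and 8.41 to 12.28, 12.30 and 12.32 (log2 4.01, SE 0.09, adjusted p = 1.35e-07). DHX58, a relative of the RNA helicase RIG-I, rose by 3.80 (SE 0.07), and TLR3, which binds double-stranded RNA in endosomes, by 1.08 (SE 0.18, adjusted p = 0.0113). MAVS, the mitochondrial adaptor, differed by 0.43 (adjusted p = 0.0672, and 0.00207 with the replicate block), and the adaptors MYD88 and TRAF6 by -0.02 and -0.01.

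Antiviral effectors rose in most measured members. Of 15 listed antiviral GTPase genes 6 were measured and 5 rose, 83.3% of those measured against the 3.75% of all genes (median 4.33). The exception was DNM1L, a mitochondrial fission GTPase, at -0.04. The guanylate-binding proteins, which attack the membranes around pathogens, gave GBP1 at 4.36 (SE 0.31), GBP5 at 4.29 (SE 0.34) and GBP4 at 4.07 (SE 0.15). GBP1 and GBP5 had their lowest LPA value on replicate 2, at 7.48 and 4.32, against 8.55 and 5.44 on replicate 1, and GBP4 did not, with LPA values of 7.58, 7.69 and 7.54.

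Of 30 listed antiviral effectors that mostly act on RNA, 11 were measured. Among these 8 rose, 72.7% against the 3.75% of all genes, and none fell (median 2.33). After RSAD2 came SAMD9, a restriction factor of poxviruses, at 3.91 (7.80, 7.58 and 7.70 to 11.61, 11.62 and 11.57). EIF2AK2, the kinase PKR that stops translation, rose by 2.67 (SE 0.25, adjusted p = 0.000752), and IFIT5, which binds viral RNA ends, by 2.33 (SE 0.08). OAS1X and APOBEC3Z1 showed the widest spread. OAS1X, an oligoadenylate synthetase gene, read 2.12, 2.09 and 2.12 with LPA and 6.80, 2.63 and 7.75 with LPA+IFNt, so that LPA+IFNt replicate 2 stayed below background and the gene was not called (adjusted p = 0.135). It passed without that array (adjusted p = 7.47e-05) and with spike-in centring (0.0347). APOBEC3Z1, a cytidine deaminase, read 3.53, 2.96 and 3.53 against 6.67, 5.08 and 8.46. It was called at 3.40 (SE 0.72, adjusted p = 0.0341), but among the fits that left out 1 array it was called only without LPA+IFNt replicate 2 or 3, with adjusted p up to 0.102 without LPA replicate 1. OASL and IFIT2 had mean levels below background in both groups.

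The membrane and mitochondrial interferon-induced genes rose in 13 of 15 measured members, 86.7% against the 3.75% of all genes, and fell in none (median 3.26). Besides PLAC8B, IFI44L, IFI44, IFI6, IFI27 and TNFSF13B, they included RTP4 at 4.24 (SE 0.21), XAF1, a promoter of apoptosis, at 3.26 (SE 0.07), and IFITM1, which blocks virus entry, at 2.05 (11.66, 11.29 and 11.94 to 13.79, 13.39 and 13.85). Of 8 PARP and DTX3L genes, which attach ADP-ribose or ubiquitin to proteins, 4 rose (50%) and none fell (median 0.85). DTX3L rose by 3.15, PARP9 by 3.09, PARP14 by 2.80 and PARP12 by 1.31, each with an SE under 0.1. PARP1, the DNA repair enzyme of the family, differed by 0.07 and was not called.

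Tripartite motif and nuclear body genes rose in 8 of 10, 80% against the 3.75% of all genes (median 1.45). Besides TRIM21, TRIM34 rose by 2.24, TRIM5, a restriction factor of retroviruses, by 1.75 (10.39, 10.30 and 10.36 to 12.01, 12.15 and 12.14), and PML, the scaffold of nuclear bodies, by 1.69. Each of these calls held in all 9 fits that left out 1 array.

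Some genes for showing peptides on MHC class I rose, as did most measured immunoproteasome genes. Of 7 immunoproteasome and activator genes 5 rose, 71.4% against the 3.75% of all genes (median 0.95). PSMB9 and PSMB8, catalytic subunits of the immunoproteasome, rose by 2.25 (SE 0.19) and 1.61 (SE 0.17), PSMB10, the remaining catalytic subunit, by 1.36 (SE 0.22, adjusted p = 0.0109), and PSME2 and PSME1, the PA28 activator, by 0.95 and 0.70. Of 22 constitutive proteasome genes none rose and 1 fell, or 4.55%, near the 4.16% of all genes (median -0.02). That gene was PSMC5, a cap ATPase, at -0.24 (adjusted p = 0.0188), and the call was lost without LPA replicate 1 or 3 or LPA+IFNt replicate 1 or 3 (adjusted p up to 0.0712) and with arrays centred on the array's spike-in controls (0.30).

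Of 14 MHC class I and peptide loading genes 5 rose, 35.7% against the 3.75% of all genes, and none fell (median 0.56). The number that rose was 3 without LPA replicate 1, LPA+IFNt replicate 1 or LPA+IFNt replicate 3. TAP1, a chain of the peptide transporter, went from 9.37, 8.95 and 9.48 to 11.17, 10.91 and 11.22 (log2 1.83, SE 0.15, adjusted p = 0.000328). Its partner TAP2 rose by 0.96 (SE 0.05) and the loading protein TAPBP by 0.59 (SE 0.09). TAPBPL, a peptide editor, rose by 1.03, a call lost without LPA replicate 1, LPA+IFNt replicate 1 or LPA+IFNt replicate 3 (adjusted p 0.0648, 0.0605 and 0.0666). B2M, the light chain, rose by 0.53 from 14.55, 14.22 and 14.69 to a mean of 15.02 (SD 0.03). It was called only without LPA replicate 2 or 3 among the fits leaving out 1 array (adjusted p up to 0.117, without LPA+IFNt replicate 1). ERAP1 and ERAP2, which trim peptides, differed by 0.86 and 0.75 and passed only with the replicate block (adjusted p 0.187 and 0.149, and 0.0271 and 0.0199 with the block), which took the list to 7. The class I heavy chain probe sets named BOLA and BOLA-N were not called, at 0.46 and 0.71. Genes of MHC class II and lysosomal processing gave 2 of 17 higher, 11.8% against the 3.75% of all genes, and none lower. They were BOLA-DMB, a class II peptide editor, at 1.65 (SE 0.25) and CTSS, a lysosomal protease, at 1.37 (SE 0.11).

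Some secreted immune factors rose. Of 23 chemokines 4 rose and none fell, 17.4% against the 3.75% of all genes (median 0.03). CCL8, a monocyte attractant, went from below background at 2.12, 2.25 and 2.25 to 5.44, 5.69 and 4.87, at least 5.80-fold (log2 3.13, SE 0.18, adjusted p = 4.9e-05). CXCL10, which attracts T and NK cells, read 5.40, 3.69 and 6.14 with LPA and 8.18, 7.53 and 8.84 with LPA+IFNt (log2 3.11, SE 0.60, adjusted p = 0.0221). Its levels varied widely within each group but did not overlap, and the call was lost without LPA replicate 1, LPA+IFNt replicate 1 or LPA+IFNt replicate 3 (adjusted p 0.0648, 0.071 and 0.076). CXCL12, a stromal lymphocyte attractant, rose by 1.08 and CCL2, a monocyte attractant, by 0.73. CCL5 read 5.73, 3.58 and 6.18 against 6.70, 5.71 and 7.10, overlapped and was not called (adjusted p = 0.423). CXCL8, the neutrophil attractant, differed by 0.03 at a bright 14.04 to 14.37 with LPA.

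Of 23 interleukins, TNF ligands and colony-stimulating factors 5 rose and none fell, 21.7% against the same 3.75% (median 0.03). After TNFSF13B, IL18, an inflammasome-processed cytokine, rose by 1.09 (SE 0.11, adjusted p = 0.000994) and IL15, an NK cell growth factor, by 1.02 (SE 0.21, adjusted p = 0.0303). Among the fits leaving out 1 array, IL15 stayed called when any single control array or LPA replicate 2 was left out. Its adjusted p reached 0.114 without LPA replicate 1. Among the same fits IL7 (0.51) was called only without LPA+IFNt replicate 1, with adjusted p up to 0.156 without LPA replicate 1. IL6 rose by 0.34 at a bright level (13.05, 12.90 and 13.10 to 13.38, 13.37 and 13.31), and that call was lost with spike-in centring (adjusted p = 0.0775). Of 23 receptors 1 fell and 1 rose (4.35% each way), near the 4.16% and 3.75% of all genes. Without LPA replicate 2, 6 receptors fell, with IL10RB, CD40, CXCR4, FGFR1 and MET added. IL1R1, the receptor for interleukin 1, fell by 0.86 on the log2 scale (7.34, 7.38 and 7.50 to 6.57, 6.63 and 6.44, adjusted p = 0.000142), and FAS, a death receptor, rose by 0.54, a call lost when LPA replicate 1 or LPA+IFNt replicate 1, 2 or 3 was left out. Of 19 NF-kappaB genes 1 rose (5.26%, near the 3.75% of all genes): TNFAIP6, a hyaluronan-binding protein induced by inflammation, at 0.65 (SE 0.09). Without LPA replicate 2, 3 others fell (CD40, TRAF1 and CHUK).

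Complement and coagulation gave 5 higher and 1 lower of 21 (median 0.04). Those were 23.8% and 4.76%, against 3.75% and 4.16% of all genes. C4A, a complement component, went from 3.68, 2.75 and 4.33 to 8.10, 7.86 and 8.23, 22.3-fold (log2 4.48, SE 0.36, adjusted p = 0.000304). TFPI, an inhibitor of coagulation, rose by 0.90 and SERPING1, the inhibitor of C1, by 0.87. C1R, a protease of the C1 complex, rose by 0.93, and PROS1, the anticoagulant protein S, fell by 0.93 on the log2 scale. C1R was called only without LPA replicate 2 or 3 or LPA+IFNt replicate 2 among the fits leaving out 1 array, with adjusted p up to 0.0998, and PROS1 was lost without LPA replicate 1, LPA+IFNt replicate 1 or LPA+IFNt replicate 2 (0.0794, 0.0705 and 0.0729).

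Cell death genes rose in 4 of 18, 22.2% against the 3.75% of all genes, and fell in none (median 0.21). CASP4, the inflammatory caspase that senses bacterial lipopolysaccharide, went from 8.71, 8.53 and 8.93 to 10.99, 10.95 and 10.95 (log2 2.24, SE 0.10). CFLAR, a brake on death receptors, rose by 0.82. The calls of CFLAR and FAS were both lost on leaving out LPA replicate 1, or LPA+IFNt replicate 1, 2 or 3 (adjusted p up to 0.0824 and 0.0636), which left 2 of the list without LPA+IFNt replicate 1 or 3.

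Metabolic enzymes linked to interferon gave 7 of 17 higher and 1 lower (median 0.41). Those were 41.2% and 5.88%, against 3.75% and 4.16% of all genes. PNPT1, a mitochondrial RNA exonuclease, rose by 2.09, SLC25A28, a mitochondrial iron carrier, by 1.56, MOV10, an RNA helicase, by 1.35 and NT5C3A, a pyrimidine nucleotidase, by 1.21. CH25H, which makes an antiviral oxysterol, was the member that fell, by 0.29 on the log2 scale at a low level (3.80, 3.89 and 3.62 to 3.46, 3.52 and 3.47). Its call held only without LPA replicate 3 among the fits leaving out 1 array, with adjusted p up to 0.147 without LPA replicate 1, and not with spike-in centring (0.155). WARS1, a tryptophanyl-tRNA synthetase known as an interferon target, rose by 1.17 at its brightest probe set, and of its 4 probe sets 3 were called higher and 1 lower. Of 23 further interferon targets 14 rose, 60.9% against the 3.75% of all genes, and none fell (median 1.11). Among them were ZNFX1, a helicase-domain sensor, at 2.86 and LGALS9, a galectin, at 2.94.

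Some genes with large rises lay outside all lists and were picked after their values were seen. PARM1, a mucin-like gene, went from 4.85, 4.89 and 4.57 to 9.33, 9.31 and 9.16, 22.6-fold. ABHD1, a hydrolase-fold gene, went from below background to 6.31, 6.26 and 6.41, at least 11.6-fold, and BCL2L15, of the BCL2 family, rose 9.86-fold. Of the 614 called rises 206 were on probe sets without a single gene name. The most changed of these went from 1.89, 1.92 and 1.88 to 8.51, 8.25 and 8.48, at least 49.2-fold, and the next rose 54.6-fold, from 3.61, 3.66 and 3.63 to 9.35, 9.22 and 9.63.

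**Figure D4:**
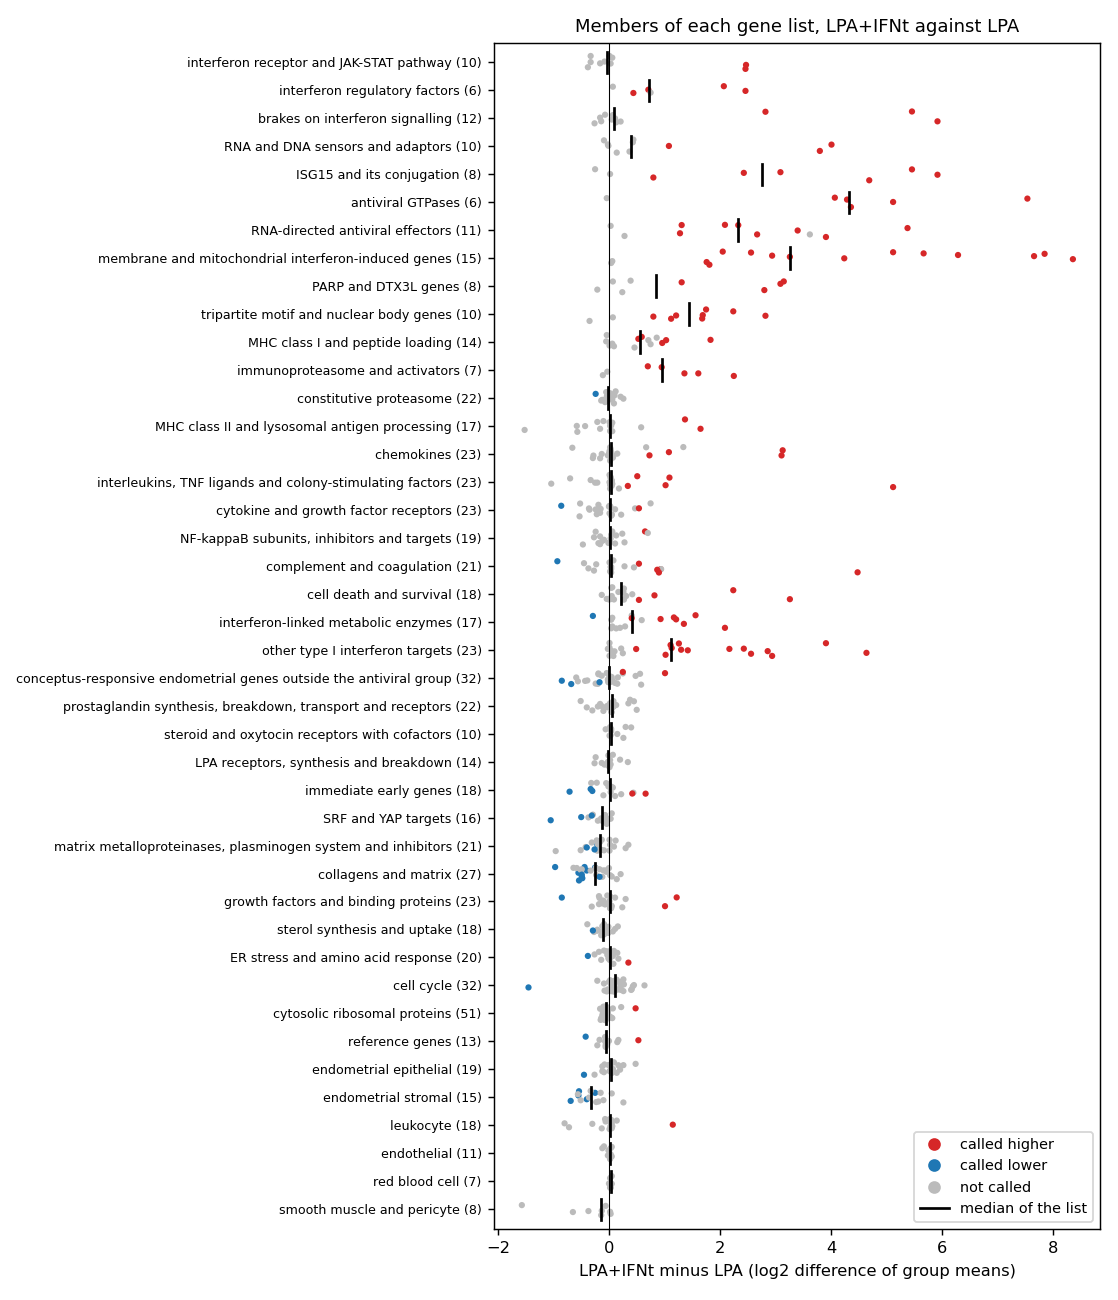
Each point is 1 gene by its brightest probe set, placed by its LPA+IFNt minus LPA difference (log2), in rows of gene lists with the number measured in brackets and the median as a black bar. The interferon lists at the top hold most of the large rises (red), with medians up to 4.33. The called falls (blue) are smaller and spread over many rows, with the most, 10, in the collagens and matrix row.

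The falls were smaller and the genes more mixed. UTP6, a factor in ribosome assembly, read 4.29, 4.79 and 5.04 in control cells, 6.82, 6.70 and 7.12 with LPA and 5.25, 5.04 and 4.87 with LPA+IFNt. It was 3.55-fold lower with LPA+IFNt than with LPA (log2 -1.83, SE 0.20, adjusted p = 0.00182). ANKH, which exports pyrophosphate, and TCAF1, a partner of TRP channels, were also highest with LPA. LPA alone lay above control by 2.17 for UTP6 and 1.46 for ANKH (adjusted p 0.0171 and 0.0121). For TCAF1 it lay 1.56 above control without passing (adjusted p = 0.0706). ANKH read 4.54, 4.66 and 4.75, then 6.20, 6.21 and 5.91, then 4.67, 4.28 and 4.33, and was 3.20-fold lower with LPA+IFNt than with LPA (adjusted p = 0.000213). TCAF1 read 3.49, 3.60 and 3.30, then 4.74, 4.82 and 5.52, then 3.56, 4.01 and 3.58 (log2 -1.31, adjusted p = 0.0126). Against control, LPA+IFNt differed by 0.34 for UTP6, -0.22 for ANKH and 0.25 for TCAF1, none of which passed (adjusted p 0.453, 0.432 and 0.571). These comparisons share arrays and are not independent of each other.

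Other falls took levels below the control. PRUNE2, which codes for a BCH-domain protein, read 6.56, 6.57 and 6.08 in control cells, 5.75, 5.78 and 6.11 with LPA and 4.04, 4.02 and 4.43 with LPA+IFNt, 3.29-fold lower than LPA (log2 -1.72, SE 0.18, adjusted p = 0.00117). CDKN1C, the imprinted cell cycle inhibitor p57, went from 7.54, 7.13 and 7.59 to 6.12, 5.69 and 6.11 (log2 -1.45, SE 0.18, adjusted p = 0.00333). RRAD, a small GTPase of the RGK family, went from 8.78, 8.18 and 8.94 to 7.23, 7.11 and 7.45, 2.58-fold lower. MEDAG, a gene linked to fat cell formation, fell equally, 2.58-fold. CIBAR1, a BAR-domain protein of cilia, fell from 11.15, 10.98 and 10.75 to 9.82, 9.77 and 9.77 and ITGAE, the integrin alpha E chain, from 9.25, 9.06 and 8.79 to 7.93, 7.84 and 7.83, by 1.17 and 1.16 on the log2 scale. In each of these the LPA+IFNt arrays lay below all LPA and control arrays.

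SERPINF1, an inhibitor of vessel growth, was 2.56-fold lower and EDNRA, the endothelin A receptor, 2.26-fold lower. Calls that single arrays decided were those of SERPINF1 (adjusted p 0.0599 without LPA replicate 1), TCAF1 (0.0513 without LPA+IFNt replicate 1), EDNRA (0.0719, 0.0517 and 0.0594 without LPA replicate 1, LPA replicate 3 and LPA+IFNt replicate 1) and MEG3. MEG3, an imprinted non-coding RNA, read 5.06, 3.91 and 5.40 against 3.17, 3.14 and 3.28 (log2 -1.59, adjusted p = 0.034). Among the fits leaving out 1 array its call held only without LPA replicate 2, with adjusted p up to 0.125 without LPA replicate 1.

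Several of these genes had probe sets that disagreed. MTURN, a gene of neural progenitors, had the largest named fall at -2.25 (6.19, 5.55 and 6.45 to 3.39, 4.11 and 3.93, adjusted p = 0.00465), but only 2 of its 5 probe sets were lower and the brightest gave 0.00. MEG3 had 2 of 5 lower with 0.02 at the brightest, ANKH 1 of 2 with 0.27, and TIMP2, a metalloproteinase inhibitor, 2 of 3 with -0.21. EED, a subunit of the Polycomb complex PRC2, had 23 probe sets, of which 4 were lower and 2 higher, with -0.20 at the brightest. The most changed falls without a gene name were -2.25 and -1.77. Of the 957 called falls 472 lay on probe sets without a single gene name.

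**Figure D5:**
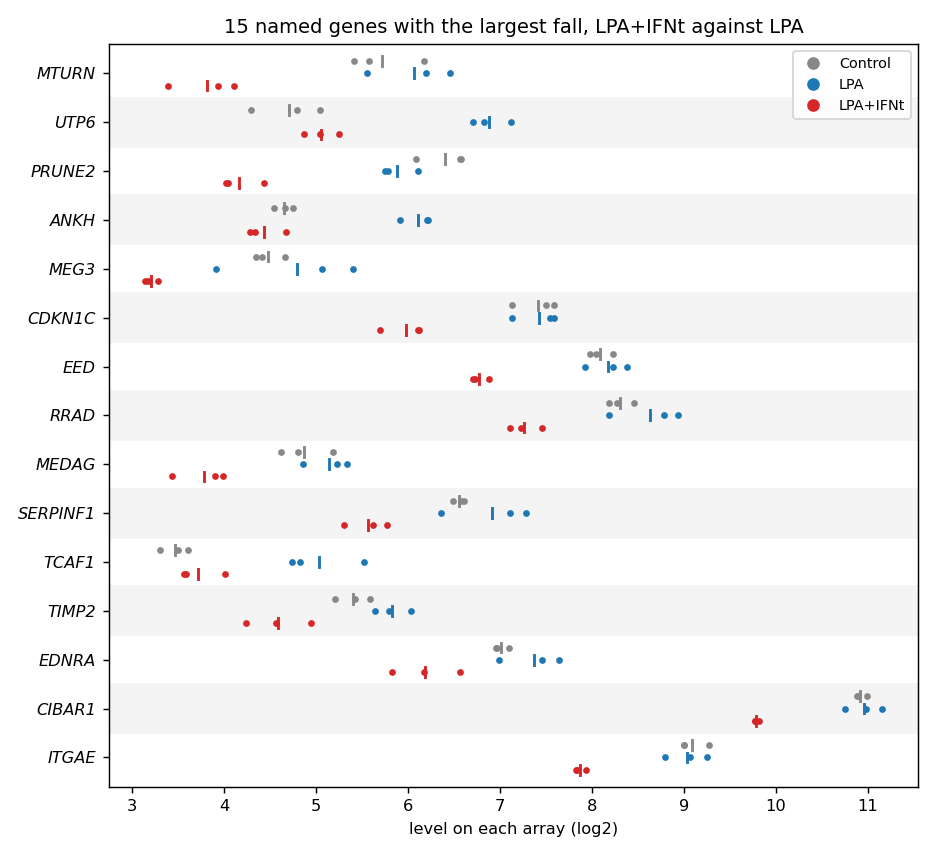
Points are the log2 level of each of the 9 arrays and short bars the mean of 3, for the 15 named genes with the largest fall, each by its most changed probe set. LPA+IFNt (red) lies left of LPA (blue) in every row, and in UTP6, ANKH and TCAF1 the LPA arrays lie right of both the control (grey) and LPA+IFNt arrays.

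Some matrix and contractile genes were lower. Of 27 collagen and matrix genes 10 fell and none rose, 37.0% against the 4.16% of all genes (median -0.25). COL12A1, a fibril-associated collagen, went from 10.58, 10.44 and 10.66 to 9.68, 9.48 and 9.63, 1.95-fold lower (log2 -0.97, SE 0.08, adjusted p = 0.000398). COL3A1 and COL1A1, fibrillar collagens, went from 14.75, 14.65 and 14.83 to 14.14, 14.22 and 14.26 (log2 -0.54, SE 0.05) and from 10.64, 10.35 and 10.55 to 10.06, 9.89 and 9.96 (log2 -0.55, SE 0.08). TNC, tenascin C, fell by 0.44 and FBN1, fibrillin, by 0.40 on the log2 scale. Called in every fit that left out 1 array were COL12A1, COL1A1, COL3A1, TNC and FBN1, and the list's count was 5 without LPA replicate 1, LPA replicate 3 or LPA+IFNt replicate 3, 6 without control replicate 1 or LPA+IFNt replicate 1 or 2, and 10 without LPA replicate 2. The replicate block gave 8 falls, and centring on spike-in controls gave 5, losing FBN1 (adjusted p = 0.0617).

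Of 16 targets of SRF and YAP, factors that respond to actin tension and are known to be activated by LPA, 3 fell and none rose (median -0.13). The falls were 18.8% of the list, against the 4.16% of all genes. ACTA2, smooth muscle actin, went from 10.87, 10.45 and 11.09 to 9.90, 9.63 and 9.74, 2.07-fold lower (log2 -1.05, SE 0.16, adjusted p = 0.00853). MYLK, the kinase of myosin light chain, named after its values were seen, fell by 1.04 at its most changed probe set (12.60, 12.36 and 12.71 to 11.50, 11.43 and 11.61, adjusted p = 0.000451) and by 0.52 at its brightest. TPM2, a tropomyosin, fell by 0.50 and CRIM1, a membrane protein that binds BMPs, by 0.31. TPM2 was lost without control replicate 2, LPA replicate 1 or 3 or LPA+IFNt replicate 1 or 3 (adjusted p up to 0.0909), CRIM1 without LPA+IFNt replicate 1 or 3 (0.0502 and 0.0572), and both with spike-in centring (0.0574 and 0.228). The classic YAP targets CCN1 and CCN2 differed by -0.07 and -0.04. DES, desmin, read 6.74, 5.93 and 7.01 against 5.25, 4.59 and 5.12 and just missed the threshold (log2 -1.57, adjusted p = 0.0526, and 0.0204 with the replicate block), as CNN1, calponin, did at -0.37 (0.0624, and 0.0109 with the block).

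Proteases and inhibitors of the matrix gave 3 lower of 21, 14.3% against the 4.16% of all genes (median -0.16). Each fall was small: CTSZ, a cathepsin, at -0.40, SERPINE2, a protease inhibitor, at -0.26 and MMP1, a collagenase, at -0.21. CTSZ held only without LPA+IFNt replicate 1 among the fits leaving out 1 array. All 3 were lost without LPA replicate 1 (adjusted p 0.145, 0.0753 and 0.081), without LPA replicate 3 (0.0843, 0.0628 and 0.0759) and with spike-in centring (0.0594, 0.197 and 0.377). Without LPA replicate 2 the list gave 5 lower.

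The cell type markers are given beside these genes because the culture held more than 1 cell type, and fewer cells of a type and less RNA per cell cannot be told apart here. Of 15 stromal markers none rose and 5 fell, 33.3% against the 4.16% of all genes. Of those 5, 4 are in the collagen and matrix list. They were COL1A1, COL3A1 and FBN1, given above, and COL1A2, a chain of type I collagen, at -0.25 (adjusted p = 0.0326). COL1A2 was not called with the replicate block (0.0609) or without control replicate 3, LPA replicate 1 or 3 or LPA+IFNt replicate 2 or 3. The remaining marker was THY1, on the surface of fibroblasts, at -0.69 (7.69, 7.56 and 7.73 to 6.98, 7.08 and 6.86, adjusted p = 0.00208). The mean level of the stromal markers was 10.83 to 11.02 on the LPA arrays and 10.60 to 10.64 on the LPA+IFNt arrays. VIM, vimentin, differed by -0.19 and was not called. Of 19 epithelial markers 1 fell, or 5.26%, near the 4.16% of all genes: SPINT2, a protease inhibitor, at -0.45. The mean level of the epithelial markers was 8.57 to 8.61 with LPA and 8.57 to 8.66 with both agents. EPCAM and CDH1, defining epithelial adhesion genes, stood at 13.94 to 14.10 and 12.34 to 12.41 with LPA and differed by 0.04 and 0.01, so both labelled cell types had their markers. The part of a shift in stromal cells in the matrix result was not tested.

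Blood cell markers were low. Of 18 leukocyte markers 11 lay at or below background with LPA. Called higher was 1 of the 18, or 5.56%, against the 3.75% of all genes. CD53, a leukocyte surface gene, rose by 1.15 from 2.88, 2.45 and 3.24 to 4.02, 3.60 and 4.40, called only without LPA replicate 3 or LPA+IFNt replicate 2 among the fits leaving out 1 array (adjusted p up to 0.107, without LPA replicate 1). PTPRC, the common leukocyte antigen, had a mean of 4.44 (SD 0.72) against 3.72 (SD 0.29), with overlapping arrays, and was not called. The mean over the leukocyte list was 3.14 to 3.31 with LPA and 3.14 to 3.26 with LPA+IFNt. Endothelial markers were at or below background with LPA in 10 of 11 and red cell markers in 7 of 7, and none was called. Smooth muscle and pericyte markers were not called in any of 8, with a mean level of 5.34 to 5.38 against 4.96 to 5.07, and 3 of them (DES, CNN1 and SMTN) passed with the replicate block.

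Genes through which interferon tau is known to act on luteolysis and those of LPA signalling gave no calls at 6 h in the fit to all arrays, though some alternatives made calls. Of 22 prostaglandin genes none was called (median 0.05). Without LPA replicate 2, PTGER4, a prostaglandin E2 receptor, was called higher, and PTGS2 and PTGR1, a prostaglandin reductase, lower, and without control replicate 1 PTGDS, a prostaglandin D2 synthase, was called lower. PTGS2, the inducible cyclooxygenase, read 13.22, 12.97 and 13.44 with LPA and 12.78, 12.74 and 12.90 with both agents. The groups did not overlap, but the difference of -0.40 did not pass (95% interval -0.67 to -0.14, adjusted p = 0.0949), and it passed with the replicate block (0.0198), as did PTGDS at -0.51 (0.127, and 0.0414 with the block). OXTR, the oxytocin receptor, read 9.11, 9.18 and 8.71 against 9.03, 9.04 and 8.76 (log2 -0.06, interval -0.36 to 0.25). ESR1 and PGR, the oestrogen and progesterone receptors, lay below background in both groups, and no member of their list of 10 was called, although NCOA1, a coactivator, was called higher with the replicate block and without LPA replicate 3.

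Of 14 genes for LPA receptors, synthesis and breakdown none was called (median -0.01), although PLPP3, a lipid phosphatase, was called lower without LPA replicate 2. LPAR6, a receptor of LPA, differed by 0.20 (interval -0.07 to 0.46, adjusted p = 0.477) and LPAR1 by 0.02. The absence of a call in these lists does not show that the levels were equal, and the intervals give the sizes that the 3 arrays a group still allow.

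Immediate early genes gave calls in both directions, with 2 of 18 higher and 3 lower (median 0.01). Those were 11.1% and 16.7%, against 3.75% and 4.16% of all genes. IER2, which lay at 8.94, 8.88 and 8.80 in control cells and 9.92, 9.89 and 9.96 with LPA, read 9.21, 9.07 and 9.36 with LPA+IFNt (log2 -0.71, SE 0.07, adjusted p = 0.00107). JUND, an AP-1 subunit, fell by 0.33 and EGR1, a growth response factor, by 0.30 on the log2 scale, the latter lost with spike-in centring (adjusted p = 0.133). ZFP36, which destabilises cytokine mRNA, rose by 0.66 and JUN by 0.42. JUN was lost without LPA replicate 1 or 3 or LPA+IFNt replicate 1 or 3 (adjusted p 0.087, 0.0696, 0.0655 and 0.0599).

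Of 32 genes known to answer to the conceptus outside the antiviral group 2 rose and 3 fell (median 0.00). Those were 6.25% and 9.38%, against 3.75% and 4.16% of all genes. IGFBP1, a binding protein for insulin-like growth factors that is an endometrial marker of the conceptus in ruminants, fell by 0.85 on the log2 scale (7.32, 7.28 and 7.36 to 6.43, 6.71 and 6.26, adjusted p = 0.00509). EPAS1, a hypoxia-inducible factor, fell by 0.68 (12.20, 12.02 and 12.41 to 11.54, 11.54 and 11.50, adjusted p = 0.0107). IGFBP3 rose by 1.01 but was called only without LPA replicate 2 or 3 among the fits leaving out 1 array (adjusted p up to 0.115, without LPA+IFNt replicate 1). ANXA1 rose by 0.25 and LGALS3 fell by 0.17 on the log2 scale, both lost with spike-in centring (adjusted p 0.0976 and 0.55), and LGALS3 also without LPA replicate 1 or LPA+IFNt replicate 3. Among 23 growth factors, BTC, betacellulin, rose by 1.22 at a low level (3.83, 3.54 and 3.28 to 4.84, 4.59 and 4.87).

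Lists of general cell function gave 1 or 2 calls each in the fit without a block, beside 3.75% of all genes higher and 4.16% lower. Called higher were 1.96% of the ribosomal list, and called lower 3.12% of the cell cycle and 5.56% of the sterol list. The ER stress list gave 5% each way and the reference genes 7.69% each way. Of 51 cytosolic ribosomal protein genes 1 was called, RPS9 at 0.48, of 32 cell cycle genes 1, CDKN1C, and of 18 sterol genes 1, CH25H, while the 20 ER stress genes gave MANF, an ER-resident factor, at 0.35 and SEL1L, of ER-associated degradation, at -0.38 (the latter lost with spike-in centring, adjusted p = 0.0617). Of 13 reference genes B2M rose and YWHAZ, a 14-3-3 protein, fell by 0.42 on the log2 scale, which spike-in centring did not keep (adjusted p = 0.0606). With the replicate block the cell cycle list gave 2 higher and 2 lower, with CCND1, MCM3 and RRM1 added, and the ER stress list 2 higher and 3 lower, with DDIT3, HERPUD1 and PHGDH added. ACTB differed by -0.03 (interval -0.14 to 0.08) and GAPDH by -0.17 (adjusted p = 0.143, and 0.0423 with the replicate block).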

How the data were processed

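Each of the 9 arrays (Affymetrix bovine, 3 control, 3 LPA, 3 LPA+IFNt) was made from 100 ng of pooled RNA. The authors deposited log2 values normalised by RMA; RMA and Partek are named per the submitters' processing notes, and the array number limits the precision. Of 24128 probe sets 112 array controls were left out. The platform annotation paired 13292 probe sets with a single symbol, 86 with more than 1 and 10638 with none, and genes are named from the single ones.

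From the deposited log2 values, limma 3.58.1 in R 4.3.3 was fitted over all 9 arrays (lmFit, eBayes), with the contrast LPA+IFNt minus LPA, two-sided tests, Benjamini-Hochberg adjustment over 24016 probe sets and a threshold of 0.05. On simulated data the fit recovered 62%, 78%, 98% and 100% of log2 changes of 0.5, 1, 2 and 4. It made 14 false calls among the unchanged probe sets of the 24016. The simulated arrays were independent, and only 50 probe sets were changed at each size. The real samples deviated together by replicate number and gave more calls, so these rates need not hold for them. A level at or below 2.80, the highest of 3 trp probe sets, counted as background, and folds from it start there.

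The text names the 15 most changed genes each way (called and not overlapping, by most changed probe set), up to 4 called members per list (42 lists, by brightest probe set), a set of signalling, LPA and reference genes, and 2 unnamed probe sets each way; others were named after seeing their values. The members and lists were chosen with earlier results of these data known. Lists are described by counts and medians of their measured members, without set tests. A listed gene with no probe set paired with its symbol alone was not measured. The planned search for promoter motifs was not run.

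Residuals of same-numbered samples correlated at 0.39 to 0.49 between LPA and LPA+IFNt, and at 0.19 to 0.46 for the pairs with control. These lay above every pair of different numbers within those groups. The labels do not say that the numbers pair the samples. The main fit therefore took no pairing, and the replicate block was run as an alternative. Alternatives were the replicate block, leaving out each array, other centring, a filter on dim probe sets, 6 arrays only, averaged probe sets, array weights, an intensity trend and no variance moderation.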

Additional observations from a re-analysis of the deposited data

How the results depend on the processing

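The 614 rises stayed within 1.5 times that number under every alternative run, from 420 without variance moderation to 831 with array weights, and from 460 to 730 with 1 array left out. The 957 falls varied more: 1508 with the replicate block, 548 with only the 6 arrays of both groups and 481 without variance moderation, and from 494 to 1474 with 1 array left out. The total of 1571 was 1004 with the 6 arrays, 901 without variance moderation and 2320 with the replicate block, and from 954 to 2204 with 1 array left out. The alternatives chosen after seeing the data gave 1157 calls (6 arrays with the replicate block) and 1182 (replicate block without both replicates 2). Of the called rises 396 of 614 (64.5%) held in all 9 fits leaving out 1 array, and of the called falls 397 of 957 (41.5%); with the replicate block 586 and 889 held. Spike-in centring gave 615 higher and 690 lower and moved the median of all probe sets from 0.019 to 0.04. Of 136 named results 117 were called, 82 of these held under every alternative named in the methods, and none reversed. The causes of these shifts were not tested. With 3 arrays a group, small changes are the least secure: the simulation, which had independent arrays, recovered 62% of changes of 0.5 log2 units.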

Other observations

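The genes that rose often lay beside each other in the genome. This count was made after seeing the data, in the gene order of the RefSeq annotation of ARS-UCD2.0, over the 9137 measured genes placed there. Of 342 called-higher genes 71 (20.8%) had another called-higher gene as a direct neighbour among measured genes, against 655 of all 9137 genes (7.17%). For called-lower genes it was 26 of 380 (6.84%), against 736 of 9137 (8.06%). Runs of at least 3 such rising genes included PARP9, DTX3L and PARP14 (log2 2.80 to 3.15), and IRF9, RNF31, PSME2 and PSME1 (0.62 to 2.46). Further runs were TRIM5, TRIM34 and TRIM6 (1.12 to 2.24), and TNFAIP6, NMI and RBM43 (0.65 to 3.08). The rest were TAP2, PSMB8, TAP1, PSMB9 and BOLA-DMB (0.96 to 2.25), CEPT1, LRIF1 and CD53 (0.33 to 1.15), and LRRC8C, GBP5, GBP1 and GBP4 (0.29 to 4.36). RNF31, LRIF1 and CD53 were each called in only 2 of the 9 fits leaving out 1 array (adjusted p up to 0.0737, 0.109 and 0.107). The runs that hold them rest on those calls.

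The probe sets annotated to EED gave calls in both directions, 2 higher and 4 lower of 23, and those of WARS1 gave 3 higher and 1 lower of 4. Whether all of these probe sets detect the gene they are named for was not tested. Over all genes 356 had at least 1 probe set called higher and 449 at least 1 called lower, and 5 had both.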
